A study of Mus musculus with 2 samples.

Results

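Axon guidance rests on a small number of ligand and receptor families, and the accessibility of 64 of their genes in mouse hippocampus is described here. The genes were chosen by name, though with earlier results of these data known. They are the autosomal, protein-coding Sema, Plxn, Epha, Ephb, Efna, Efnb, Slit, Robo and Unc5 family members, with Nrp1, Nrp2, Ntn1, Ntn4 and Dcc. They make up 64 of the 20807 autosomal protein-coding genes of GENCODE M21, of which 32 encode ligands and 32 encode receptors or coreceptors. Efnb1, Plxna3 and Plxnb3 lie on the X chromosome and were left out for that reason. Unc5cl, which does not encode a netrin receptor, was left out as well.

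DNase-seq, which maps open chromatin by where the nuclease DNase I cuts, was run on 2 libraries that form 1 group. Both came from hippocampus of female B6CASTF1/J mice aged 25 days, a hybrid of the C57BL and CAST strains, and the labels do not say which hippocampal layer was taken. They are numbered as biological replicates but carry the same donor entry, so that part of their spread may be technical. With 1 group there is nothing to test between conditions, and every comparison below is a description of the guidance genes beside all genes of the same libraries.

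Semaphorins signal through plexins, and most secreted ones also need a neuropilin as coreceptor. Ephrins are bound to the cell surface and signal to Eph receptor tyrosine kinases on the neighbouring cell, with signals passing in both directions. Slits repel axons that carry Robo receptors, while netrins attract axons through Dcc and repel them through Unc5 receptors. In the hippocampus these systems lay out the layered connections in development, and several of them act later at synapses and dendritic spines.

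Each library has a strict and a longer peak list, and each peak carries a deposited signal whose scaling is not stated. A promoter is called open here where strict peaks of both libraries reach into the 500 bp either side of at least 1 annotated start. By this rule 50 of the 64 guidance genes (78.1%) had an open promoter, against 55.3% of all autosomal protein-coding genes. The ligands and the receptors each had 25 open promoters of 32. Counted in single libraries, 57 guidance genes (89.1%) had a strict peak in replicate 1, against 61.4% of all genes, and 50 (78.1%) had one in replicate 2, against 55.9% of all genes. With the longer lists 53 were open (82.8%), against 61% of all genes. With only the stronger 50% of each strict list 36 were open (56.2%), 15 ligands and 21 receptors, against 48.5% of all genes.

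By family, the counts ran from none to all. Of the semaphorins 18 of 20 were open, of the plexins 6 of 7 and of the neuropilins both. Of the A ephrins 3 of 5 were open, of the B ephrins 1 of 2, of the EphA receptors 6 of 9 and of the EphB receptors 4 of 5. All 3 Slits, all 4 Unc5 genes and Dcc were open, while 2 of the 4 Robo genes and neither netrin were. The semaphorin system therefore stood at 26 of 29 (89.7%) and the ephrin system at 14 of 21 (66.7%).

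**Figure D1:**
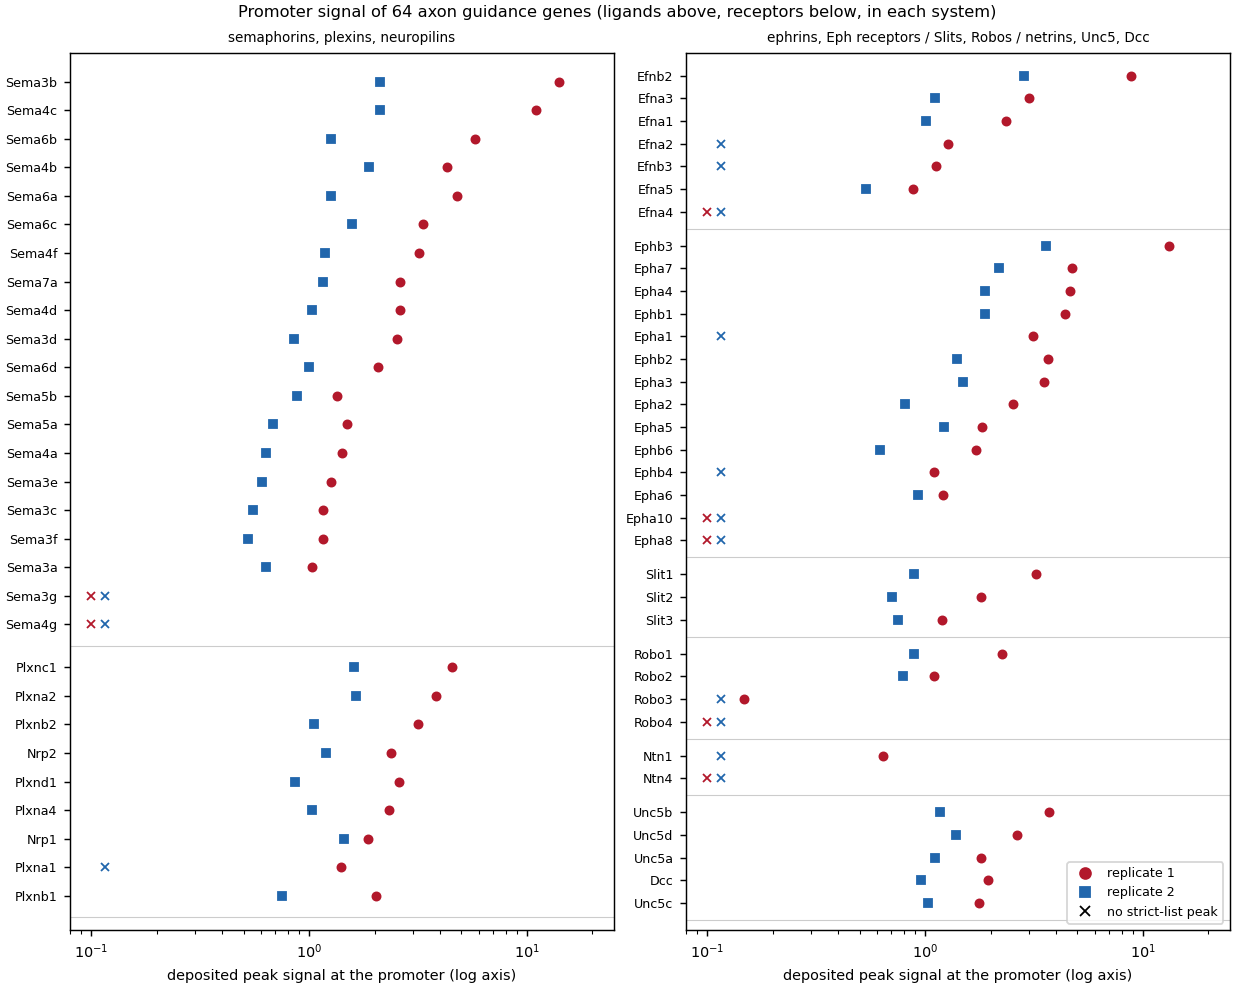
Deposited signal of the strongest strict peak within 500 bp of a start (log axis) for each of the 64 genes, by system, with ligands above receptors. Circles are replicate 1, squares replicate 2 and crosses at the left edge mark no strict peak. Ephb3 and Efnb2 are high in both libraries, while Sema3b and Sema4c are high mainly in replicate 1.

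Promoter sequence and gene structure differ between the guidance genes and the rest. Their median gene length was 87.8 kb, against 17.6 kb over all genes, their median number of annotated starts was 4.5, against 3, and their median CpG ratio was 0.69, against 0.57. The CpG ratio is the observed over expected number of CG pairs in 1000 bp around the outermost start. Within the 50% of genes with the higher ratio, 42 of 52 guidance genes (80.8%) were open, against 86.3% of all such genes. Within the 50% with the lower ratio, 8 of 12 (66.7%) were open, against 24.4% of all such genes. Only 3 of those 8, however, were open at the outermost start itself. Among the longest 10% of genes 29 of 30 guidance genes (96.7%) were open, against 76.9%, and among the other 90% it was 21 of 34 (61.8%), against 52.9%.

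Where they were open, the guidance promoters carried low peaks. Over the 50 open genes replicate 1 had a median signal of 2.54 and replicate 2 one of 1.04, against 4.40 and 1.83 over all 11516 open promoters. Ranked among all open promoters, 39 of the 50 lay below the middle in both libraries, 26 of them in the lowest 25% in both, and 7 lay above the middle in both. The difference remained within the higher CpG ratio, where open guidance genes had medians of 2.60 and 1.11, against 4.74 and 1.98. It also remained among the longest 10% of genes, at 2.07 and 1.00, against 3.10 and 1.33. In bulk tissue, fewer cells with an open promoter and less opening per cell cannot be told apart.

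The libraries ordered the guidance genes alike. Spearman's correlation between their signals was 0.863 over the 50 open genes, against 0.852 over all open genes, a description in which each gene gives 1 point from the same 2 libraries. Replicate 1 had the higher signal at all 50, with a median ratio of 2.33, and at 11449 of the 11516 open promoters, with a median ratio of 2.38. The offset between the libraries was thus of about the same size over all open promoters.

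**Figure D2:**
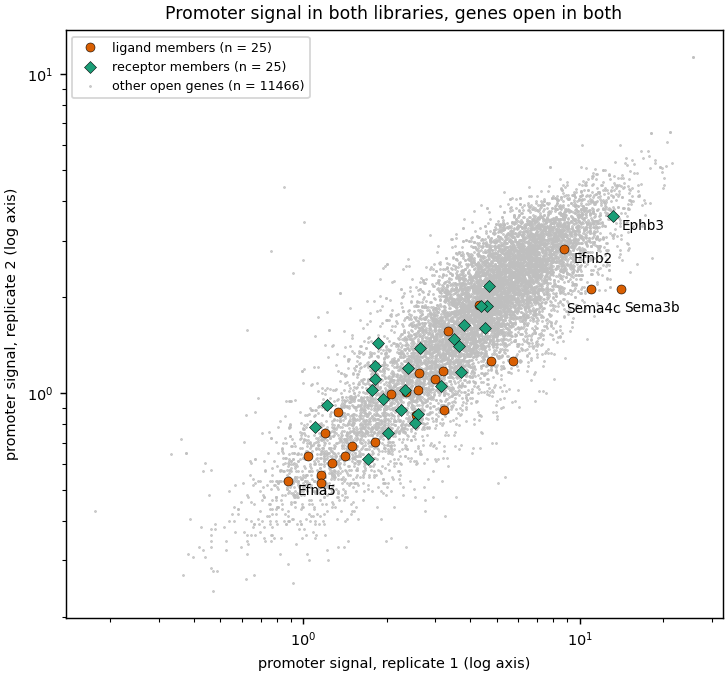
Promoter signal in replicate 1 (x, log axis) against replicate 2 (y, log axis) for genes open in both libraries. Circles are 25 ligand genes, diamonds are 25 receptor genes and grey points are the other 11466 open genes. Most guidance genes lie in the lower left of the cloud, from Efna5 at 0.88 and 0.53 to Ephb3 at 13.2 and 3.59.

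The semaphorin promoters covered a wide range of signals, with a few high ones and many low ones. Sema3b, a secreted class 3 semaphorin, had 14.1 in replicate 1 and 2.12 in replicate 2. By the starts of transcripts that GENCODE tags as basic alone, Sema3b had no strict peak in either library. Sema4c, a transmembrane ligand of plexin B2 with a start of another gene in its windows, had 11.0 and 2.12. Both stood above 95% of open promoters in replicate 1, at percentile ranks of 99.2 and 96.9, but near the upper middle in replicate 2, at 61.4 and 61.2. Sema4b, another transmembrane class 4 member, had 4.30 and 1.89, close to the middle of all open promoters in both. Next came Sema6b with 5.75 and 1.26, Sema6a with 4.76 and 1.27, Sema6c with 3.34 and 1.57, and Sema4f with 3.19 and 1.18.

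At the low end stood the other secreted class 3 genes. Sema3f, which repels hippocampal axons that carry Nrp2, had 1.16 in replicate 1 and 0.53 in replicate 2. Sema3c had 1.16 and 0.56. Sema3a, the founding growth cone collapsing semaphorin of vertebrates, had 1.04 and 0.64, and Sema3e, the ligand of plexin D1, had 1.26 and 0.61. These 4 lay in the lowest 6% of all open promoters in both libraries. Sema3d was higher, at 2.54 and 0.86. Sema4a, Sema4d, Sema5a, Sema5b, Sema6d and the lipid-anchored Sema7a ranged between 1.34 and 2.62 in replicate 1 and between 0.64 and 1.16 in replicate 2. Sema3g and Sema4g had no strict peak within 500 bp of a start in either library. Their nearest strict peaks lay 2120 and 2100 bp away for Sema3g, and 14245 and 1007 bp away for Sema4g, in replicates 1 and 2.

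For 2 open semaphorin promoters a motif search found a match inside bases that both libraries call footprinted, that is, protected from cutting within an open site. Sema4b (chr7:80186620-80186919, plus strand) holds a pair of GC boxes there, the site of Sp family factors. Sema6c (chr3:95160170-95160469, plus strand) holds a CCAAT box, the site of NF-Y, read here as ATTGG on the other strand. Both are shown 5′ to 3′ on mm10, from 250 bases before to 50 bases after the RefSeq start, with bases footprinted in both libraries in capitals. The letters are those of the reference assembly, not of the CAST allele that the mice also carry. Only footprinted runs of at least 8 bases were searched. Sema3b, Sema3f and Sema6a had no RefSeq promoter to search. Such matches were not counted over all promoters, so that no share can be set beside these 2.
Sema4b: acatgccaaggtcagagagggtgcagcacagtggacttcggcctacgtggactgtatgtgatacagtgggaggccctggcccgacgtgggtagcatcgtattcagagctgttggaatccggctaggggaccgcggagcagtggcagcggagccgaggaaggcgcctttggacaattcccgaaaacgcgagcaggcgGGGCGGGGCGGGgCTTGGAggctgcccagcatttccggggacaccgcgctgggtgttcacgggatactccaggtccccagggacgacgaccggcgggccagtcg
Sema6c: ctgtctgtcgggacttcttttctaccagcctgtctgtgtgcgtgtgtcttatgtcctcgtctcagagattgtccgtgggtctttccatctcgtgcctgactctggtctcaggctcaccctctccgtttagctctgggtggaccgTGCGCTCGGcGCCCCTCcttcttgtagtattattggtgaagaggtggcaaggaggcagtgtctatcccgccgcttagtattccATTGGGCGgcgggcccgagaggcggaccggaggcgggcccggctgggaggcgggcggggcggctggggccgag

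The semaphorin receptors were more even than the ligands. Plxnc1, the receptor of Sema7a, had 4.53 in replicate 1 and 1.61 in replicate 2, and Plxna2, a receptor of class 6 semaphorins that patterns mossy fibre layers, had 3.82 and 1.64. Plxnb2 had 3.15 and 1.06, at different starts, Plxnd1 2.60 and 0.86, Plxna4 2.34 and 1.03, and Plxnb1 2.03 and 0.75. The coreceptors Nrp1 and Nrp2 had 1.87 and 1.44, and 2.39 and 1.20. Nrp1 thus ranked at 13.4% of open promoters in replicate 1 and 34.5% in replicate 2. At the outermost start of Plxnb2, where both libraries had a peak, the signals were 1.51 and 1.06. Plxna1 had a strict peak in replicate 1 only, with a signal of 1.40, and both libraries had a peak there in the longer lists.

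By mean rank over both libraries, the ephrin system held the most accessible guidance promoter and the least accessible open one. Ephb3, a receptor for B ephrins, had 13.2 in replicate 1 and 3.59 in replicate 2, ranks of 98.8% and 95.6%, and was the only guidance gene above 95% of open promoters in both. Its transmembrane ligand Efnb2 had 8.78 and 2.84, ranks of 91.5% and 83.7%, at a peak that also lies within 500 bp of a start of the neighbouring gene 4921522P10Rik. Epha7 followed with 4.71 and 2.18, then Epha4, which binds A and B ephrins, with 4.62 and 1.88, and Ephb1 with 4.40 and 1.88. At the other end Efna5, an A ephrin that maps hippocampal projections to the septum, had 0.88 and 0.53, ranks of 1.71% and 3.09%. Efna5 was the lowest of all open guidance promoters in replicate 1.

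Between these ends lay most Eph receptors. Ephb2, which clusters NMDA receptors at synapses, had 3.66 in replicate 1 and 1.40 in replicate 2, and Epha3 had 3.50 and 1.49. Epha2, Epha5 and Epha6 had 2.54 and 0.81, 1.82 and 1.22, and 1.21 and 0.92. Ephb6, whose kinase domain is inactive, was the lowest of the Ephb genes that were open, at 1.71 and 0.62. The A ephrins Efna1 and Efna3 had 2.35 and 1.01, and 2.99 and 1.11. Efna3 is known in hippocampus as the astrocyte ligand of Epha4 on dendritic spines.

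Of the 21 ephrin system genes, 4 had a strict peak in replicate 1 only, with signals of 3.13 at Epha1, 1.27 at Efna2, 1.12 at Efnb3 and 1.10 at Ephb4. Epha1 and Ephb4 were open in both libraries by the longer lists. Efna4, Epha8 and Epha10 had no strict peak in either library. The nearest strict peaks were 1473 and 2592 bp from a start of Efna4, and 14265 and 24606 bp from that of Epha8, in replicates 1 and 2. For the kinase-inactive Epha10 they were 542 and 642 bp away, just outside the window. The RefSeq start of Epha10 differs from the GENCODE starts, and its window (chr4:124881535-124881834) did hold strict peaks of both libraries, so that its closed state depends on the annotated start.

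The promoters of this system with a motif match inside footprinted bases were Efnb2, Epha2 and Efna3. They are shown with the promoter of Ephb3, the most accessible, and with that of Epha8, which is rich in CG pairs but had no peak. Efnb2 (chr8:8661193-8661492, minus strand) holds a GC box and a CCAAT box in capitals, and Epha2 (chr4:141300971-141301270, plus strand) holds TGACGTCA, the cAMP response element bound by CREB. Efna3 (chr3:89322890-89323189, minus strand) holds the EGR site GCGTGGGCG, read on the other strand. Efnb3 had no RefSeq promoter to search, and matches of this kind were again not counted over all promoters. Capitals again mark bases footprinted in both libraries, 5′ to 3′ on the strand of the gene.
Efnb2: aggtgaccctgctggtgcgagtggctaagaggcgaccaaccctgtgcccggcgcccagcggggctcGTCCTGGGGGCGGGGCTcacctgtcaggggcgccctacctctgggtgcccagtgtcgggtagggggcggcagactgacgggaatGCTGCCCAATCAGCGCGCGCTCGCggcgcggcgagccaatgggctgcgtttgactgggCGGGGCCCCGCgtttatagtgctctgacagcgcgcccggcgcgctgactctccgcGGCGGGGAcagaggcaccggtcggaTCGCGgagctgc
Epha2: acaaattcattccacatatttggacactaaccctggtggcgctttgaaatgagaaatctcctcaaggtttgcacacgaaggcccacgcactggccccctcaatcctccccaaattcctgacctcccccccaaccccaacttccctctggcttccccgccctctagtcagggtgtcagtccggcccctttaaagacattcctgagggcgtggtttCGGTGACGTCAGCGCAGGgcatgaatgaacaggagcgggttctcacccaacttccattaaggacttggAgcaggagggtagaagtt
Efna3: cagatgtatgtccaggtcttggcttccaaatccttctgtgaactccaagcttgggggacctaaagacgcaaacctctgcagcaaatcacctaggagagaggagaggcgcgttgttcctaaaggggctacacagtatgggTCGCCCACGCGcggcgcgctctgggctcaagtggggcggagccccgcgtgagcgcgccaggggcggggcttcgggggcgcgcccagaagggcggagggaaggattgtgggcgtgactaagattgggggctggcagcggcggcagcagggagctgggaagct
Ephb3: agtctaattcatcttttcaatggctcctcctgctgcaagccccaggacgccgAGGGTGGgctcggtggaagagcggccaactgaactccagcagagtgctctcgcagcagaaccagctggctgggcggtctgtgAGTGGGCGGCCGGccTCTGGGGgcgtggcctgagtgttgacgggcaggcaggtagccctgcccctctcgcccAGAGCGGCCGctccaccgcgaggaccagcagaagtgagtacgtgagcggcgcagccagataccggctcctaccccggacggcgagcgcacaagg
Epha8: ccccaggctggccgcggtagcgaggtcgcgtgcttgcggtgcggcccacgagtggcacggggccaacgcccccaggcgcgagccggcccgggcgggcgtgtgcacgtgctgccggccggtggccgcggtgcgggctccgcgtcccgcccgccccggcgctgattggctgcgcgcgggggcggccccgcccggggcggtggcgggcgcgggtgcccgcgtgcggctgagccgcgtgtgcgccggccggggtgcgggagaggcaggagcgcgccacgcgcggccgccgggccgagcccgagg

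In these windows 65 of 300 bases were footprinted in both libraries at Efnb2, 37 at Ephb3 (chr16:21204545-21204844, plus strand), 19 at Epha2 and 11 at Efna3. Epha8 (chr4:136956767-136957066, minus strand) had none in either library. Its window has 56 CG pairs and a GC content of 84.3%, against 35 CG pairs and 72.3% at Efnb2, 23 and 66.7% at Ephb3, and 10 and 54.7% at Epha2. The footprints in the window shown for Ephb3, which leaves out its strongest replicate 1 peak, held none of the 12 motifs searched.

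The 3 Slit genes, Robo1 and Robo2 were open, with low signals. Slit1 had 3.21 in replicate 1 and 0.89 in replicate 2, Slit2 had 1.81 and 0.71, and Slit3 had 1.20 and 0.75. The receptors Robo1 and Robo2 had 2.26 and 0.89, and 1.10 and 0.79. All 5 ranked below 35% of open promoters in both libraries. Slit3 is open only by the rule of any start: its peak lay at the outermost start in replicate 1 and at a start farther inside the gene in replicate 2.

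Robo3 and Robo4, adjacent on chromosome 9, stood apart from Robo1 and Robo2. Robo3, which lets commissural axons cross the midline, had a strict peak of 0.15 in replicate 1 only. Robo4, whose known site of expression is endothelium, had no strict peak within 500 bp, with the nearest at 4490 and 7935 bp in replicates 1 and 2. None of its 300 bases at the RefSeq start (chr9:37401722-37402021, plus strand) was footprinted, and the window holds 2 CG pairs at a GC content of 50.3%. It is shown for comparison with the promoters above, 5′ to 3′.
Robo4: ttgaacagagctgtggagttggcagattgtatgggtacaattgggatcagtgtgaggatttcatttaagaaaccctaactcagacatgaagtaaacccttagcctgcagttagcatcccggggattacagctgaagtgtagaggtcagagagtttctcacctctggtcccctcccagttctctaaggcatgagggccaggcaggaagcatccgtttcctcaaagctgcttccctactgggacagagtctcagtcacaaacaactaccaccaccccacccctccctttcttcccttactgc

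In the netrin system the receptors were open and the ligands were not. Unc5b had 3.72 in replicate 1 and 1.17 in replicate 2, Unc5d had 2.65 and 1.39, Unc5a 1.81 and 1.11, and Unc5c 1.76 and 1.03. Dcc, the attractive netrin receptor, had 1.93 and 0.96. All 5 ranked below 40% of open promoters in both libraries. Ntn1, the founding netrin, had a strict peak of 0.64 in replicate 1 only. Ntn4, a netrin of basement membranes, had none in either, and its nearest strict peak lay 29001 bp away in both libraries. Neo1, a Dcc relative that also binds netrin and is not among the 64, had 5.07 and 2.03.

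The tissue check used marker lists of other cell types. Of 12 autosomal markers of hippocampal and forebrain excitatory neurons 9 were open, of 9 interneuron markers 0, of 6 astrocyte markers 1 and of 6 oligodendrocyte markers 2. None of 6 microglial, 7 endothelial, 6 cerebellar and hindbrain, and 4 choroid plexus markers was open in both libraries. In replicate 1 alone a strict peak was present at 11 of the excitatory, 1 of the interneuron, 5 of the astrocyte, 3 of the oligodendrocyte, 2 of the endothelial and 2 of the hindbrain markers. In replicate 2 alone it was present at 10 of the excitatory, 1 of the astrocyte and 2 of the oligodendrocyte markers. Over all autosomal protein-coding genes 55.3% were open in both libraries, and 61.4% had a strict peak in replicate 1 and 55.9% in replicate 2. The endothelial list holds Robo4. The part of cell makeup in the promoter states of the guidance genes was not tested.

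Most guidance genes have several annotated starts. These fall into 195 groups more than 1 kb apart, of which 54 (27.7%) were open in both libraries, against 26.8% of the start groups of all genes. The median CpG ratio was 0.75 in the open groups and 0.26 in the others. Of the 49 genes with at least 2 groups 43 (87.8%) were open, against 66.2% of all such genes. The outermost group was open at 34 of the 43 (79.1%), against 88.1% of all such open genes, and only an inner one at 8 (18.6%), against 11.6%. Slit3 is the remaining gene. Slit2 had 1 open group of 15 and Robo2 1 of 7. RefSeq places further starts of Robo2 outside the GENCODE gene, and these are not counted here. The window of the outermost (chr16:75447244-75447543) held strict peaks of both libraries, while that of the next (chr16:75092721-75093020) did not.

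The strongest peaks of the libraries lay in different groups at Slit3, Plxnb2 and Sema4d, 3 of the 50 open genes (6%), against 2.05% of all open genes. At Sema4d the group with peaks of both libraries had 2.29 and 1.03. An inner start carried the peak at several of the named genes. Sema3b had 4 groups, and its high signal lay at the fourth, with a CpG ratio of 0.36. Robo1 was open at the third of 7 groups, Sema3a at the last of 3, and Plxna2 at the second of 5. At Sema4a the peaks were centred 550 and 554 bp from the nearest start, in replicates 1 and 2, and only reached into the window.

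Each of 5 genes (10% of the 50) had 2 open groups, against 8.2% of all open genes with 2 or more. Epha7 had 4.71 and 2.18 at the outermost group, in replicates 1 and 2, and 1.17 and 0.82 at the next. Ephb3 had 13.2 and 3.59 at the outermost and 2.54 and 1.35 at the next, and Sema4b had 4.30 and 1.89, then 1.52 and 0.89. In these 3 the outermost was the stronger. In Sema4f it was the weaker, with 1.65 and 0.97 against 3.19 and 1.18 at the inner group, and likewise in Plxnc1, with 2.18 and 1.09 against 4.53 and 1.61 at the innermost.

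A start of another gene can lie in the same window. This was so for 7 guidance genes (10.9%), against 20.8% of all genes. They were Efna4, Epha4, Epha6, Epha7, Sema4c, Sema5a and Unc5c, each with another protein-coding or long noncoding gene. A peak within 500 bp of starts of both genes cannot be assigned to either. Efna4, however, had no strict peak, and no start of another such gene lay within 500 bp of the strongest Epha7 peaks. With all genes that share a window counted as closed, 44 guidance genes were open (68.8%), against 38% of all genes. The strongest peak was centred within 100 bp of an own start in 35 of the 50 open genes in replicate 1 (70%), against 72.4% of all open genes, and in 30 in replicate 2 (60%), against 68.7%.

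Footprints within 500 bp of a start were present in both libraries at 52 of the 64 guidance genes, against 58.1% of all genes. Footprints that the libraries shared, overlapping by at least 50% of the shorter one, were found at 42, against 50.9% of all genes. The open guidance genes had a median of 7 footprints in replicate 1 and 5 in replicate 2, against 6 and 5 over all open genes. Their windows were larger, with a median of 2396 bases over the 64 genes, against 2003 over all genes. Per kb of window the open guidance genes had 2.03 and 1.41 footprints, against 2.22 and 1.74. Ephb3 had 17 and 10, Nrp1 17 and 11, Epha7 16 and 10, Sema6d 13 and 18, and Sema4b 15 and 12. All footprints carry 1 constant FDR of 0.01, so that they could not be ranked.

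Motifs were counted in the RefSeq promoter windows, on both strands, for the 54 guidance genes in the RefSeq table, with 70 promoters. The GC box GGGCGGG was in 44 of the 70 (62.9%), against 35.4% of all 19174 autosomal promoters, and in 26 of the 40 guidance promoters with peaks of both libraries (65%), against 52.4% of all such promoters. The CCAAT box was in 28.6%, against 37.5%, and among promoters with peaks in 27.5%, against 40.9%. TATAAA was in 2.86%, against 12.1%, but among promoters with peaks in 5%, against 5.19%. The EGR site GCGTGGGCG, which can share letters with a GC box, was in 2 (2.86%), against 0.881%, and the cAMP element TGACGTCA in 1, against 2.36%. The E-boxes CAGCTG and CACGTG were in 14.3% and 7.14%, against 15.8% and 8.04%, and the AP-1 site TGANTCA in 4.29%, against 7.02%. NRF1, NFI, RFX and MEF2 motifs were in 0 of the 70, against 1.39%, 0.0313%, 0.0522% and 0.146% of all promoters. At shares this low, 0 matches set the guidance promoters little apart from the rest. A match describes the letters only.

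The breadth of accessibility was measured as the share of bases within 500 bp of a start that the cut-rate files list, which they do up to an FDR of 0.05. Over the 64 guidance genes replicate 1 had a median share of 28.1% and replicate 2 one of 22.1%, against 19.0% and 15.0% over all genes. Over open genes alone it was 30.1% and 27.2%, against 35.2% and 32.7%. The share is taken over the windows of all annotated starts, including starts without a peak. These windows were larger in the 64 guidance genes, with a median of 2396 bases, against 2003 over all genes. The part of window size in these shares was not tested. More than 50% of the bases were listed in both libraries at 10 guidance genes (15.6%), against 14% of all genes.

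Some broad promoters of guidance genes had low peaks. Sema7a had 100% of its bases listed in both libraries, Efna5 100% and 96.3%, and Nrp1 100% and 84.7%, in replicates 1 and 2. The median signal of these 3 was 1.87 and 1.16, against 5.04 and 2.19 over the 900 open genes of all kinds with more than 80% listed in both. Dcc had 69.9% and 84.8% listed. Sema3b was the reverse, with 8.43% and 5.35% of its bases listed, over 14 annotated starts, and the highest signal of all in replicate 1. Over the 50 open genes Spearman's correlation between breadth and signal was 0.0866 in replicate 1 and 0.299 in replicate 2, while breadth itself had a Spearman correlation of 0.921 between libraries.

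**Figure D3:**
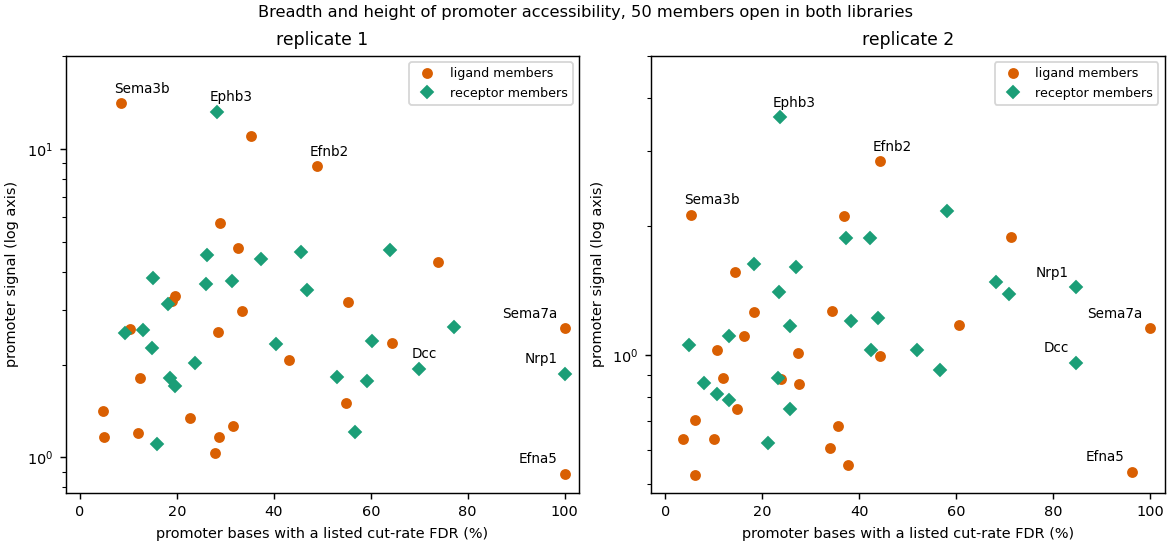
Share of promoter bases with a listed cut-rate FDR (x, %) against promoter signal (y, log axis) for the 50 open guidance genes, with replicate 1 on the left and replicate 2 on the right. Circles are ligands and diamonds receptors. Efna5, Nrp1 and Sema7a sit at the right edge with low to middling signals, while Sema3b sits at the left edge with a high one.

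Open regions away from promoters were counted where peaks of both libraries overlap outside every window of 500 bp around a start. Within the gene or 50 kb of it, the guidance genes had a median of 3 such distal regions and a range of 0 to 11, against a median of 2 over all genes. At least 1 was present at 60 of the 64, against 74.4% of all genes. Among the longest 10% of genes the median was 3 in guidance genes and 3 in all genes, and the means were 3.70 and 3.57. Among the other 90% the medians were 2 in guidance genes and 1 in all genes. In replicate 1 alone the guidance genes had a median of 5.5 and in replicate 2 alone of 4, and counting only regions whose nearest protein-coding start was the gene's own it was 1. Over the 64 genes themselves Spearman's correlation between length and number was 0.12. The starts left out here are those of GENCODE. A region counted as distal at Epha10 (chr4:124881441-124881880) therefore covers the RefSeq promoter window of that gene.

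Ephb2 and Robo1 had the most distal regions, 11 each. At Robo1 all 11 lay inside the gene, which spans 738 kb, and its own start was the nearest protein-coding start to each. At Ephb2 7 lay inside the gene. Plxna2, Unc5b, Slit3 and Efnb3 had 7 each, of which 4, 4, 6 and 0 lay inside the gene. None of the 7 near Efnb3 had its start as the nearest one. Epha7, Plxna1, Sema3c and Unc5a had 0.

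**Figure D4:**
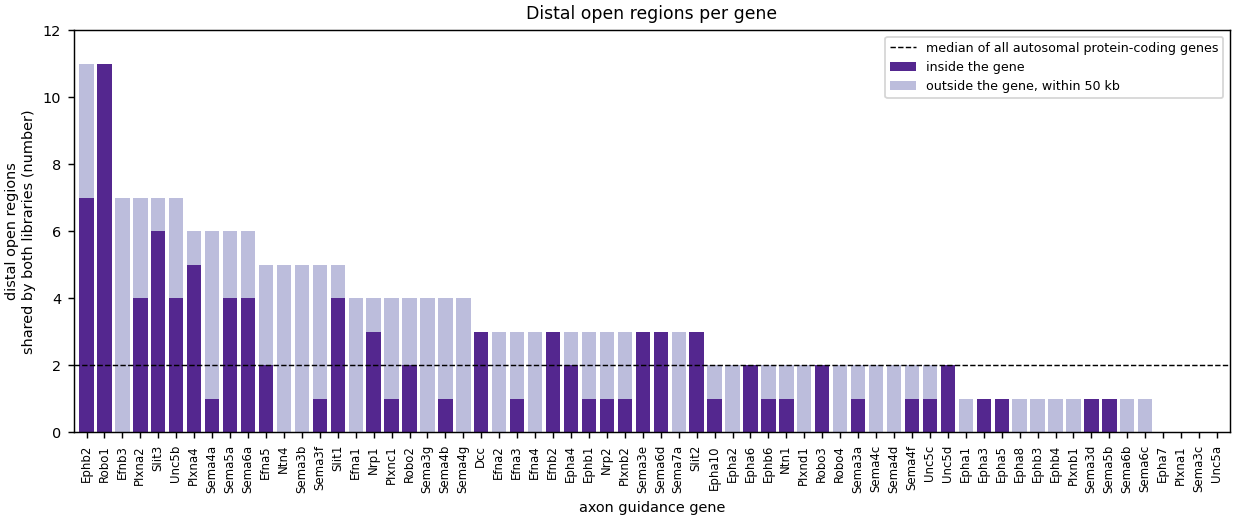
Number of distal open regions shared by both libraries for each of the 64 genes (y), with those inside the gene in dark and those outside it within 50 kb in light. The dashed line is the median of 2 over all autosomal protein-coding genes. Ephb2 and Robo1 reach 11, and Epha7, Plxna1, Sema3c and Unc5a have 0.

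Counted once each, 195 distal regions lay near guidance genes, 96 of them inside one, and for 130 the nearest protein-coding start was that of a guidance gene. Matching shares for other genes were not computed, so that the 96 and the 130 describe these regions only. The 195 regions had a median of 1.99 in replicate 1 and of 0.900 in replicate 2, against 1.99 and 0.863 over all 21426 distal regions. Footprints of both libraries lay in 183 of them (93.8%), against 92.7% of all distal regions. Unlike at the promoters, the median signal was thus close to that of all distal regions.

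The strongest were several times above these medians. One 20.4 kb before the nearest start of Slit1 (chr19:41763981-41764180) had signals of 11.3 in replicate 1 and 2.44 in replicate 2, and one 1.35 kb before that of Epha4 (chr1:77516321-77516560) had 11.2 and 2.44. A region inside Sema5a (chr15:32246081-32246280), 1.08 kb past its nearest start, had 11.98 and 2.26, far above the promoter of Sema5a itself, at 1.50 and 0.68. A region inside Ephb2 (chr4:136678581-136678740) had 9.21 and 2.15, and another (chr4:136648981-136649180) had 8.78 and 2.15. One inside Robo3 and within 50 kb of Robo4 (chr9:37430661-37430880) had 8.60 and 2.21, although neither promoter was open in both libraries. Its centre lay 0.64 kb before an inner start of Robo3, so that it fell just outside the window of 500 bp. With a window of 2000 bp Robo3 counted as open. The region with the highest mean rank of the 195 (chr9:107612721-107612960), at 12.3 and 3.25, lay near Sema3b but nearer to a start of Gnai2.

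Those inside Sema5a, Robo3 and Ephb2 are shown because each is the strongest distal region within its gene. They are given on the plus strand of mm10, 5′ to 3′, with bases footprinted in both libraries in capitals.
Sema5a: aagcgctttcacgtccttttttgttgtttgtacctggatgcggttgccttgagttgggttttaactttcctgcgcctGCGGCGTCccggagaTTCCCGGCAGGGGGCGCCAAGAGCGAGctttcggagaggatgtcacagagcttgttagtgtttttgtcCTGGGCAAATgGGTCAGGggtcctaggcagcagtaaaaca
Robo3: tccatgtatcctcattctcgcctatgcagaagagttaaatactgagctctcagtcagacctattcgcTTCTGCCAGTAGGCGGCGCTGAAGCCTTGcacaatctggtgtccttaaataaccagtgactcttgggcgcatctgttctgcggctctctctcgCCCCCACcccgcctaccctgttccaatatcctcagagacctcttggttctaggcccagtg
Ephb2: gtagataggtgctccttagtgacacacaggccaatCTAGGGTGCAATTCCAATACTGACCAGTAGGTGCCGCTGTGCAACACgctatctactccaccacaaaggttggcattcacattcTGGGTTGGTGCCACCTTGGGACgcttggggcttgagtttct

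The long capital runs in the Sema5a and Robo3 regions each hold the core letters of the site of CTCF, a factor that anchors chromatin loops: CC, then AG after any 3 letters, then GGC after any 2 more. These letters were searched after the sequences of the strongest regions had been seen. On either strand they were in 71 of the 195 distal regions near guidance genes (36.4%), against 34% of all distal regions, whose median width was 200 bp in both sets. Wholly inside bases footprinted in both libraries they were in 49 (25.1%), against 22.5%. Both shares near guidance genes were thus close to those of all distal regions.

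Strength and these letters went together in both sets. Among the strongest 10% of distal regions they were in 12 of 23 near guidance genes (52.2%), against 56.7% of all. Those 23 include the Sema5a and Robo3 regions, whose sequences were seen before the letters were chosen. Regions with the letters near guidance genes had median signals of 3.82 in replicate 1 and 0.953 in replicate 2, against 1.51 and 0.833 for those without. Over all distal regions the medians were 3.54 and 1.01 with the letters, against 1.48 and 0.795 without. In the RefSeq promoter windows they were in 8.57% for guidance genes, against 10.3% of all. The strongest regions near Sema3b, Slit1 and Epha4 held them too, inside footprinted bases, while both of those inside Ephb2 did not. The search took exact letters only, so that near matches were not counted in any of these shares. In both Ephb2 regions a footprinted run differed from the core in 1 letter. Their lack of the exact letters therefore does not show that they lack a CTCF site, and binding was not tested.

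Other genes of the same pathways were taken from a list of 69 autosomal genes, made of cytoplasmic effectors, cofactors and further ligands and receptors. Of these 60 were open (87%), against 78.1% of the 64 guidance genes and 55.3% of all genes. The open ones had a median of 3.57 in replicate 1 and of 1.63 in replicate 2, between those of the guidance genes and those of all open genes. Rac1, a GTPase that drives growth cone actin, had 9.44 and 2.53, Trio, its exchange factor downstream of Dcc, had 10.9 and 2.62, and Dpysl2, a mediator of Sema3a signals, had 6.98 and 3.06. Fyn, a kinase recruited by plexins and Dcc, had 4.82 and 2.59, and the Robo effector Srgap2 had 7.76 and 3.32. Others were low, such as Enah, a regulator of actin, with 1.83 and 0.56, and the Rac exchange factor Vav3 with 1.28 and 0.45. The open genes of the list ranged between 1.17 and 10.9 in replicate 1 and between 0.45 and 3.95 in replicate 2. The genes named here were chosen after their values were seen, to show both ends.

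Of that list 9 genes were not open. Draxin, a netrin antagonist, Flrt1 and Ntn5 had no strict peak in either library. Rgma, Dscam, Mical1, Ntn3 and Ntng1 had one in replicate 1 only and Ntng2 in replicate 2 only. With Ntn1 and Ntn4, none of the 6 autosomal netrin and netrin G genes was thus open in both libraries, against 55.3% of all genes. Like Ntn3 and Ntng1, Ntn1 had a strict peak in replicate 1 only. Ntn3 and Ntng2 had footprints in both libraries, 7 and 3 and 4 and 6, in replicates 1 and 2.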

How the data were processed

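DNase-seq was measured in 2 libraries of 1 group, described by the labels as replicates 1 and 2 and mapped to mm10. Per library, the authors deposited 2 peak lists, a footprint list and a cut-rate list. The deposited signal of a peak (column 7) was used as it stands, and its scaling is not stated. The deposited p-value columns hold false discovery rates (FDR): footprints carry a constant 0.01, and the cut-rate lists hold bases at 0.05 or less. The aligner is not given in the sources used here, nor are the peak caller and the depth, so no counting interval could be had and 2 libraries limit the precision.

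The strict lists held 61466 and 50379 peaks in replicates 1 and 2, the longer ones 104506 and 91751. Starts came from GENCODE M21, and sequences from RefSeq GRCm38.p6, the same build as mm10. A promoter's signal is that of the strongest strict peak touching 500 bp either side of any start. Distal regions are joined overlapping peaks of both libraries (1 bp or more) outside all promoter windows. Python 3.11.15, numpy 2.4.6, pandas 2.3.3, pysam 0.24.0 and bedtools 2.31.1 were used, and the overlap step was checked on simulated data.

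The 64 genes, the gene lists, motifs and alternatives were chosen with earlier results of these data known. Named with values, by rule, were genes with a strict peak in 1 library or none, per system the 3 highest and 2 lowest open promoters by mean rank, the 5 genes with most footprints and most distal regions, and those with 2 open start groups; the other genes are named for completeness.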

Additional observations from a re-analysis of the deposited data

How the results depend on the processing

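No paired analysis was possible because both libraries belong to 1 group. Of 47 alternatives, 42 left the value within the limit set for it, and 5 did not. The limit was a ratio of 3 to 2 for counts and the standard deviation between the 2 libraries for medians. Longer lists, windows of 2000 bp and single libraries can only raise the open counts, and never beyond that ratio. For the median promoter signal, 1.79 as a mean of both libraries, the limit of 1.06 holds the offset between them. The 42 are therefore no measure of stability. Counting only the stronger 50% of each strict list left 15 open ligand promoters, against 25 (open guidance genes in all 36, or 56.2%, against 48.5% of all genes). The median number of distal regions per gene was 6 with the longer lists and 1 counting only regions whose nearest protein-coding start is the gene's own, against 3. In single libraries it ranged between 4 (without replicate 1) and 5.5 (without replicate 2). The median share of listed promoter bases was 13.0% at an FDR of 0.001, against 25.1%. Taking each library alone, open guidance promoters ranged between 50 and 57. Starts of basic transcripts alone closed Sema3b, Sema4a, Sema4d and Slit3, a window of 2000 bp opened Epha10 and Robo3, and the longer lists opened Epha1, Ephb4 and Plxna1. The alternatives on overlapping peaks (49 open), on windows shared with another gene (44 open) and on the nearest start were chosen after seeing the data. Depth is unknown, and a promoter without a peak is not detected as open rather than shown to be closed.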
